A study of Saccharomyces cerevisiae with 24 samples.

Results

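Of 4427 budding yeast open reading frames (ORFs) with a gene body entropy score, 517 (11.7%) scored at least 7.0 before cadmium was added. These gene bodies, with nucleosomes already disordered in untreated cells, were chosen by that score in the 0 min column, and the remaining 3910 ORFs are the set they are compared with. In yeast, nucleosomes form a regular array that starts at the first nucleosome of the gene and fades downstream. Transcribing polymerase and the remodelling enzymes that follow it move and replace nucleosomes, and very active genes are known for irregular, partly depleted arrays. Micrococcal nuclease (MNase) digests DNA between bound proteins, so that the lengths and positions of the surviving fragments show where nucleosomes and smaller complexes sat.

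The cells were Saccharomyces cerevisiae W303, a laboratory strain of mating type MATa, and every time point carried the same alleles, which were ade2-1, his3-11,15, trp1-1, ura3-1, can1-100 and a leu2 allele. Cultures in rich medium at 30C were sampled once without cadmium (0 min) and then at 7.5, 15, 30, 60 and 120 min in 1 mM cadmium chloride, a toxic metal salt. The labels list 12 MNase and 12 RNA samples, 2 per assay and time point, the MNase replicates being technical by the series text. No culture kept without cadmium for the same time was analysed here, so time in culture and cadmium cannot be told apart.

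The 3 tables gave every ORF a single value at each time point and named no replicate. Differences between columns therefore have no replicate error, no test was made, and all comparisons describe these columns. The entropy score reached at most 7.235 in the whole table and is higher where nucleosome positions are less regular. Promoter occupancy is a count of small MNase fragments upstream of the gene, where transcription factors and other assemblies too small to be nucleosomes protected the DNA. Expression is in TPM, transcript abundance scaled to the same total in every column, and fewer cells with a transcript and less of it per cell cannot be told apart in a bulk culture. The RNA columns rested on 31543388 to 33946109 reads implied by the TPM steps, and the promoter columns on 653634 to 1050068 fragments. The depth behind the entropy scores is unknown.

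The share of disordered gene bodies was highest among the most expressed genes. Among ORFs with 1000 TPM or more at 0 min, 97 of 135 (71.9%) were disordered, and among those with 300 to 1000 TPM, 74 of 291 (25.4%) were. The share was lowest, 115 of 1902 (6.05%), at 30 to 100 TPM. It was 100 of 944 (10.6%) at 10 to 30 TPM and 38 of 238 (16.0%) below 10 TPM. By number, the 30 to 100 TPM band still held the most disordered genes, 22.2% of the set, and 7.35% were below 10 TPM. Above 1000 TPM the share was similar for ribosomal protein genes (58 of 79, 73.4%) and for other genes (39 of 56, 69.6%). The 38 ORFs above 1000 TPM that were not chosen had scores of 6.549 to 6.998. Together the disordered genes held 32.9% of all TPM at 0 min.

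**Figure D1:**
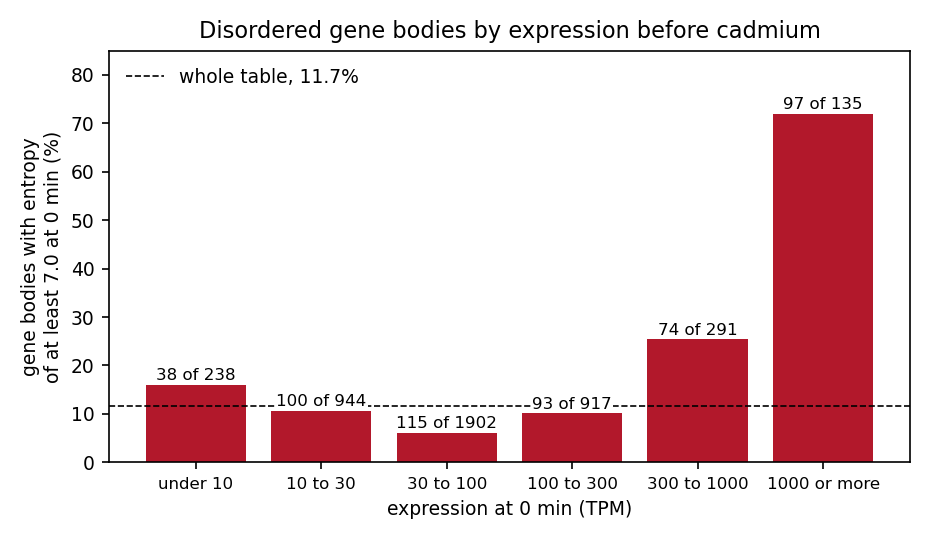
Share of ORFs with an entropy of at least 7.0 at 0 min (vertical axis, %) in 6 bands of expression at 0 min (horizontal axis, TPM), with counts above the bars and the share in the whole table as a dashed line. The share is 71.9% at 1000 TPM or more and lowest, 6.05%, at 30 to 100 TPM.

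Most of the set, 359 of the 517 genes (69.4%), was in none of the gene lists, but some lists were disordered for the larger part. Glycolysis and fermentation enzymes, which turn glucose into ethanol, contributed 18 of the 23 genes listed and present in the table (78.3%). Ribosomal protein genes contributed 77 of 110 (70.0%), which made them 14.9% of the disordered set. Hexose transporters contributed 4 of 6, plasma membrane and cell wall genes 14 of 29 (48.3%), ergosterol synthesis genes 9 of 23 (39.1%) and sulfur metabolism genes 7 of 33 (21.2%). Lists near the share of the whole table were translation factors (4 of 26), amino acid synthesis (8 of 64), respiration and ATP synthase (2 of 18), cytosolic tRNA synthetases (2 of 20) and nucleotide synthesis (3 of 31). Of 91 ribosome biogenesis genes, which assemble ribosomes and are also expressed in growth, 3 (3.3%) were in the set. Proteasome genes contributed 0 of 30, histone genes 0 of 2, heat shock genes 2 of 29, and trehalose, glycogen and general stress genes 2 of 23. Meiosis genes contributed 3 of 10 (30.0%), above the 11.7% of the whole table. The table held only 10 of 51 listed meiosis genes, 6 of 19 hexose transporters and 2 of 11 histone genes. Many ribosomal protein, glycolytic and hexose transporter genes have near-identical copies, and how the authors assigned reads shared between copies is not given in the sources used here, so single values of such genes are uncertain.

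The highest scores at 0 min were those of RPL28, ERG6, RPL15A and RPS9A, with TLD1 and SIM1 tied after them. RPL28 (YGL103W), a large-subunit ribosomal protein gene on chromosome VII from 310967 to 311927 (build R64), stood at 7.235. ERG6 (YML008C), a methyltransferase of ergosterol synthesis, and RPL15A (YLR029C) both stood at 7.227, RPS9A (YPL081W) at 7.226, and TLD1 (YDR275W) and SIM1 (YIL123W) at 7.225. Just inside the cutoff were RIE1 and QDR2 at 7.0 and RPL19B at 7.001, and just outside were ERG26, YJL218W and RGS2, each at 6.999. Of the 129 genes less than 0.05 above the cutoff, 59 (45.7%) were at or above 7.0 at 7.5 min, against 24 of the 131 (18.3%) that lay up to 0.05 below it. Of the 388 genes further above the cutoff, 320 (82.5%) were.

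The disordered genes also differed from the others in length and position, which the rule did not name; whether gene length enters the score is not given in the sources used here. Their gene length had a median of 1131 bp, against 1395 bp for the others, and the share of ORFs in the set was 15.9% below 750 bp and 6.65% at 3000 bp or more. The gap to the upstream neighbouring gene had a median of 665 bp, against 417 bp. It exceeded 1000 bp for 27.7% of the disordered genes and for 10.3% of the others. This held in every band of expression at 0 min, with 29.7% against 11.3% below 30 TPM, 28.4% against 9.46% at 30 to 300 TPM, and 25.1% against 14.1% at 300 TPM or more. Downstream gaps differed less, with medians of 383 bp and 286 bp. A divergent upstream neighbour was present for 49.5% of the disordered genes and 52.5% of the others. Within 20 kb of the outermost annotated gene of a chromosome lay 15 disordered genes (2.9%) and 47 others (1.2%), and 10 of those 15 were below 30 TPM. Among neighbouring genes present in the table, 15.2% of the neighbours of disordered genes were themselves in the set, against 10.2% of the neighbours of others.

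**Figure D2:**
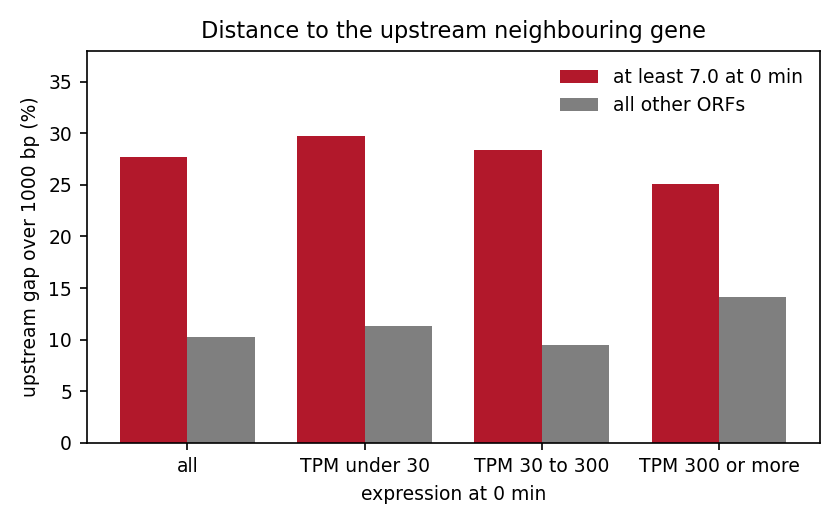
Share of ORFs whose upstream neighbouring gene is more than 1000 bp away (vertical axis, %), for all ORFs and for 3 bands of expression at 0 min (horizontal axis, TPM), with disordered gene bodies in red and all other ORFs in grey. The red bars run from 25.1% to 29.7% and the grey bars from 9.46% to 14.1%.

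After cadmium, the disordered set ranged from genes that stayed disordered to genes that became more ordered. The median entropy of the set over the 6 columns, in order of time, was 7.103, 7.077, 7.067, 7.065, 7.053 and 7.031. Its 10th percentile moved much further, over 7.022, 6.925, 6.779, 6.734, 6.687 and 6.657 at the same times, while the 90th percentile lay between 7.187 and 7.201. The other ORFs had medians of 6.574, 6.522, 6.530, 6.564, 6.605 and 6.602. Of the disordered genes, 379, 345, 335, 312 and 288 were at or above 7.0 at 7.5, 15, 30, 60 and 120 min, against 75, 149, 227, 328 and 346 of the others. In the whole table the share at or above 7.0 was 11.7% at 0 min and 10.3%, 11.2%, 12.7%, 14.5% and 14.3% at the treated time points. In all 6 columns, 233 of the 517 (45.1%) were at or above 7.0, and 84 (16.2%) were below it in all 5 treated columns. Between these, 64, 32, 50 and 54 genes were at or above 7.0 in 1, 2, 3 and 4 of the treated columns.

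**Figure D3:**
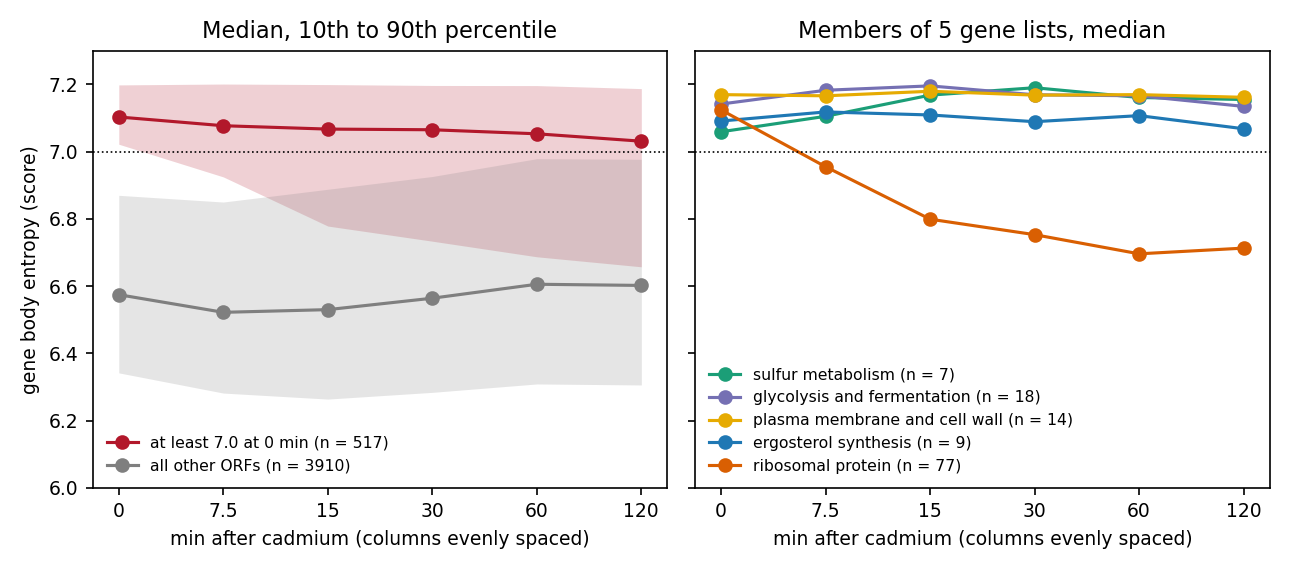
Gene body entropy (vertical axis, score) in the 6 columns (horizontal axis, min after cadmium, evenly spaced). On the left, medians with shading from the 10th to the 90th percentile for disordered gene bodies (red) and all other ORFs (grey); on the right, medians of the disordered members of 5 gene lists, where ribosomal protein genes stand at 6.713 at 120 min and the other lists stay above 7.0.

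A choice of high values at 0 min by itself favours lower values later, so differences from 0 min are given as a description. Over the 5 treated columns, 31, 91, 106, 122 and 152 disordered genes had an entropy lower by at least 0.2 than at 0 min. These were 6.00%, 17.6%, 20.5%, 23.6% and 29.4% of the set, against 4.04%, 10.8%, 10.4%, 10.5% and 12.0% of the whole table. Higher by at least 0.2 were 0, 2, 1, 0 and 0 genes of the set, against 1.81%, 4.59%, 7.95%, 12.8% and 14.9% of the whole table, and the set had little room below the highest score. The 7.5 min column was not used to choose the genes, but the set was still high in it, with a median entropy of 7.077. Rises from there again had little room, so these counts are also a description. Counted from that column, 49, 70, 90 and 122 disordered genes (9.48%, 13.5%, 17.4% and 23.6%) were lower by at least 0.2 over the next 4 columns. The whole table gave 3.23%, 4.36%, 4.63% and 6.35%, and the other ORFs alone 2.4%, 3.15%, 2.94% and 4.07%. Higher by at least 0.2 were 1, 3, 5 and 6 of the disordered genes, against 2.91%, 8.52%, 15.1% and 17.6% of the whole table.

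Ribosomal protein genes became more ordered early. The 77 in the set had median entropies of 7.124, 6.955, 6.799, 6.753, 6.696 and 6.713. Their median expression over the same columns was 1673, 1597, 869, 304, 82.2 and 50.5 TPM. They were 60 of the 91 disordered genes lower by at least 0.2 in entropy at 15 min, but 65 of the 172 below 7.0 at that time and 49 of the 138 below it at 7.5 min. At 7.5 min, 21 of them (27.3%) already had an entropy lower by at least 0.2, against 4.04% of the whole table. At that time 0 of the 77 had a log2(TPM + 1) difference of -1 or less. All 77 were past that difference at 30, 60 and 120 min, and 5 were at or above 7.0 at 60 min. Their promoter counts had medians of 295, 262, 244, 284, 294 and 319 fragments, without a comparable drop. The 33 ribosomal protein genes outside the set had median entropies of 6.939, 6.735, 6.580, 6.569, 6.586 and 6.555. The early difference was not particular to the set, as 13 of these 33 (39.4%) were lower by at least 0.2 at 7.5 min. With ribosomal protein genes counted in, so were 24.0% of the 217 ORFs outside the set with 300 to 1000 TPM at 0 min. At 1000 TPM or more, 34.2% of the 38 outside the set were. In the set the shares of these 2 bands were 6.76% and 19.6%. At 60 min 63 of the 77 (81.8%) and 23 of the 33 (69.7%) were lower by at least 0.2.

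RPL28, the highest gene of the set, had entropies of 7.235, 7.229, 7.058, 6.753, 6.502 and 6.507 over the 6 columns and 3536, 3345, 1731, 628, 145 and 82.6 TPM. The entropy at 7.5 min was thus close to that at 0 min, and the lower scores came together with lower TPM. RPL8B (YLL045C), another large-subunit gene, had one of the 5 lowest mean entropies under cadmium, with 7.048, 6.824, 6.203, 6.049, 6.067 and 5.970. Also among these lowest means were DBP2, an RNA helicase gene (7.032, 6.513, 6.070, 6.027, 6.272 and 6.166), RPL22B and YEF3. YEF3 (YLR249W), the fungal translation elongation factor 3, had 7.159, 6.867, 6.296, 6.332, 6.238 and 6.228, with 5490, 5494, 2811, 501, 162 and 186 TPM. Of the 3 other translation factor genes of the set, TEF4 and STM1 were below 7.0 from 15 min on. EFB1 (YAL003W), a subunit of elongation factor 1, stayed between 7.131 and 7.211, although it had 285 TPM at 60 min, against 2345 TPM at 0 min.

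Most glycolytic genes of the set were still at or above 7.0 at the end. The 18 genes of the set had median entropies of 7.142, 7.183, 7.196, 7.169, 7.166 and 7.135 and median levels of 1116, 1812, 3246, 4925, 3711 and 2272 TPM. All 18 were at or above 7.0 at 7.5 and 15 min, against 73.3% and 66.7% of the whole set. At 120 min 13 (72.2%) were, and 3 were lower by at least 0.2. The share at or above 7.0 then was 55.7% in the whole set and 64.5% without ribosomal protein genes. That last split was chosen after the values were seen. At 120 min, 6 of the 18 (33.3%) were higher in TPM by at least 1 on the log2 scale and 2 (11.1%) were lower, against 29.8% and 22.4% of all ORFs. PGK1 (YCR012W), phosphoglycerate kinase, had one of the 5 highest mean entropies under cadmium, with 7.100, 7.218, 7.215, 7.224, 7.211 and 7.221. Its level was 1271, 2866, 6329, 9016, 10457 and 10994 TPM. The other 4 of these highest means were those of ERG6, ESS1 (a prolyl isomerase gene), YNR068C and MET6. CDC19 (YAL038W), pyruvate kinase, which leads the list at 0 min, stayed between 7.164 and 7.219. PDC1, pyruvate decarboxylase, had 3169 TPM at 120 min, against 18102 TPM at 0 min, and its entropy at 120 min was 6.979. ENO1 (YGR254W), an enolase gene, had promoter counts of 49, 113, 182, 176, 265 and 301 fragments.

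Of 33 sulfur metabolism genes, which supply cysteine and glutathione for binding cadmium, 7 were disordered before the metal was present. The 7 in the set had median entropies of 7.059, 7.105, 7.168, 7.190, 7.161 and 7.155, and all 7 were at or above 7.0 at 15, 60 and 120 min. Their median level was 25.9, 400, 598, 712, 805 and 931 TPM, so that the median gene of the group was weakly expressed at 0 min. MET6 (YER091C), methionine synthase, had the highest mean entropy under cadmium of the whole set, with 7.059, 7.222, 7.228, 7.218, 7.227 and 7.218. Its expression was 217, 3040, 5411, 4817, 3216 and 2255 TPM. YCT1 (YLL055W), a cysteine transporter, had 10.4, 103, 341, 712, 1683 and 2716 TPM with promoter counts of 117, 172, 337, 479, 542 and 647 fragments. MET2 (YNL277W), homoserine acetyltransferase, and MET28 (YIR017C), a transcription regulator of the pathway, were the other sulfur genes among the 5 largest expression rises. STR2, which leads the list at 0 min with 7.184, had 65.4 TPM at 120 min, against 25.9 TPM at 0 min. The 26 sulfur genes outside the set had median entropies of 6.713, 6.940, 7.025, 7.074, 7.082 and 7.112.

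Among membrane, cell wall and sterol genes of the set, median disorder changed little and more genes were lower than higher in expression at 120 min. The 14 plasma membrane and cell wall genes had a median entropy of 7.170 at 0 min and between 7.162 and 7.180 afterwards. Their median expression was 476, 433, 330, 431, 271 and 139 TPM, and of the 13 with a mean of 1 TPM or more, 8 (61.5%) were lower by the log2 threshold and 3 (23.1%) higher at 120 min, against 22.4% and 29.8% of all ORFs. At 120 min, 9 of the 14 (64.3%) were at or above 7.0. The share was 55.7% in the whole set and 64.5% in the set without ribosomal protein genes. In that split, chosen after the values were seen, the median entropy of the 440 genes was 7.099 at 0 min and 7.068 at 120 min. Little change in the median was therefore not particular to these lists. SIM1, a cell wall protein gene, had 7.225 in each of the first 3 columns and 7.182 at 120 min, while its expression over the 6 columns was 219, 199, 180, 120, 92.9 and 45.0 TPM. The 9 ergosterol genes had median entropies between 7.068 and 7.118, with 686, 493, 495, 474, 308 and 217 TPM, and 6 of the 9 (66.7%) were at or above 7.0 at 120 min. ERG6 stayed between 7.202 and 7.228 over the 6 columns, while its expression was 686, 493, 495, 409, 270 and 148 TPM and its promoter count 185, 124, 98, 93, 93 and 77 fragments. The 4 hexose transporter genes were all at or above 7.0 at 60 min, and HXT3 had 159 TPM then, against 1036 TPM at 0 min. IMD3, an IMP dehydrogenase gene of guanine nucleotide synthesis, behaved differently, with 7.217, 7.101, 6.597, 6.523, 6.446 and 6.369. ILV5, an enzyme of branched amino acid synthesis, had 7.207, 7.211, 7.143, 7.094, 6.888 and 6.908. IME1, the regulator of entry into meiosis, stayed between 7.126 and 7.178 at 6.65 to 24.3 TPM.

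Expression of the disordered genes moved in both directions, and over the whole set a larger share was lower than among the others. Of the 515 with a mean of at least 1 TPM, 186 were lower by at least 1 in log2(TPM + 1) at 60 min (36.1%, against 20.4% of all 4423 such ORFs) and 161 were higher (31.3%, against 31.6%). At 7.5, 15, 30 and 120 min, 15, 85, 155 and 194 were lower (2.91%, 16.5%, 30.1% and 37.7%, against 1.13%, 13.8%, 18.1% and 22.4%). At the same times, 31, 103, 147 and 148 were higher (6.02%, 20.0%, 28.5% and 28.7%, against 3.19%, 18.2%, 28.0% and 29.8%). The median difference of the disordered genes was -0.09, -0.16, 0.00, -0.06 and -0.31 over the 5 treated columns, against -0.11, 0.08, 0.30, 0.34 and 0.22 for the others. Within bands of expression at 0 min, the share lower at 60 min was not larger in the set throughout. It was 83.5% against 89.5% of the others at 1000 TPM or more, and 73.0% against 58.1% at 300 to 1000 TPM. The shares were 35.5% and 38.7% at 100 to 300 TPM and 11.3% and 12.1% at 30 to 100 TPM. They were 4.0% and 2.13% at 10 to 30 TPM and 2.78% and 0.505% below 10 TPM. Without ribosomal protein genes, a comparison chosen after the values were seen, 24.9% of 438 disordered genes were lower at 60 min and 36.8% were higher. Of the 3875 others that do not encode ribosomal proteins, 17.6% were lower and 31.9% were higher. The median of all ORFs itself differed by 0.31 at 60 min. Of the disordered genes past the threshold then, 46.4% were higher as deposited and 39.8% after rescaling the columns by their median ratio, against 63.4% and 52.5% of the others. The share of TPM in the set was 32.9%, 34.0%, 29.9%, 24.8%, 19.8% and 17.1% over the 6 columns.

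The 5 largest sustained rises were those of MET2, YCT1, PHO89, MET28 and AHP1. PHO89 (YBR296C), a sodium and phosphate cotransporter, had 24.4, 452, 1001, 1546, 1325 and 1392 TPM, and AHP1 (YLR109W), a peroxiredoxin, 136, 926, 4626, 7216, 6712 and 9289 TPM. The 5 largest falls were those of DBP2, NSR1, PHO3, YKR075C and INA1. PHO3 (YBR092C), an acid phosphatase, had 413, 288, 89.6, 8.75, 3.07 and 2.16 TPM, with entropies that stayed between 6.964 and 7.080. NSR1 (YGR159C), a nucleolar protein gene of ribosome biogenesis, had 1179, 755, 76.5, 24.2, 12.5 and 24.3 TPM and its entropy was lowest, 6.854, at 15 min and 7.041 at 120 min.

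Whether a gene body stayed disordered went with the direction of its expression change. At 60 min, the 186 disordered genes with lower TPM had a median entropy difference from 0 min of -0.22, and 96 of them (51.6%) were lower by at least 0.2. The 715 others with lower TPM had a median of -0.10, and 233 (32.6%) were lower by at least 0.2. The 161 disordered genes with higher TPM had a median difference of -0.002, whose sign was positive under 3 of the alternatives tried, and 126 (78.3%) were still at or above 7.0. The 1238 others with higher TPM had a median difference of 0.12. Of the 168 disordered genes past neither fold, 72.6% were at or above 7.0, against 33.9% of the 186 with lower TPM. At 120 min the shares were 68.9% with higher TPM, 68.8% past neither fold and 34.0% with lower TPM. At 7.5 min they were 83.9%, 72.3% and 80.0% in that order. Counted from 7.5 min, the 173 disordered genes lower in TPM at 60 min had a median entropy difference of -0.14, against -0.04 for the 552 others lower in TPM.

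**Figure D4:**
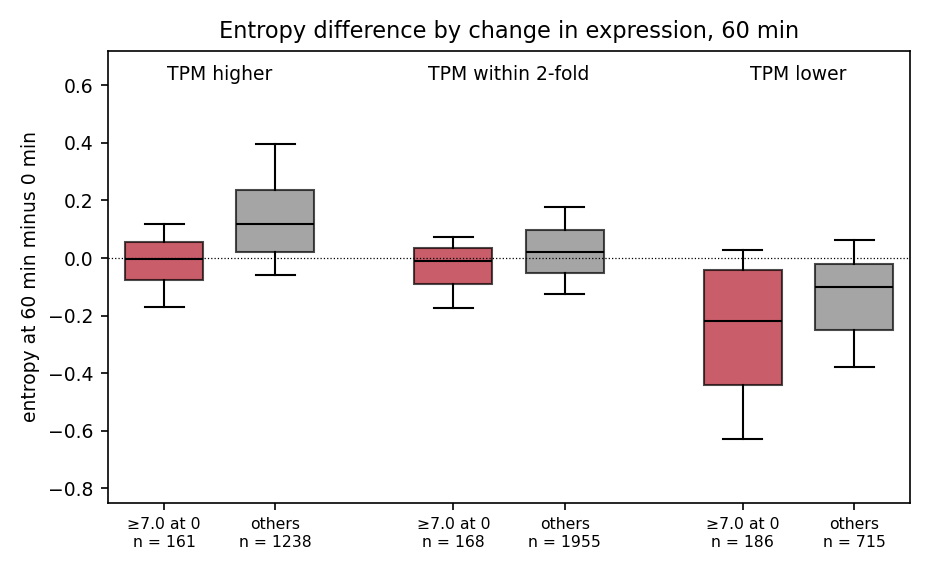
Entropy at 60 min minus 0 min (vertical axis, score) for ORFs whose log2(TPM + 1) was higher by at least 1, within 2-fold, or lower by at least 1 at 60 min (horizontal axis), disordered gene bodies in red and others in grey. Boxes span the quartiles with the median as a line and whiskers reach the 10th and 90th percentiles; the lowest median is that of disordered genes with lower TPM, -0.22.

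The larger difference in the disordered set was not seen without ribosomal protein genes. In a split chosen after the values were seen, 5 of the 77 ribosomal protein genes of the set (6.49%) with lower TPM at 60 min were at or above 7.0, with a median entropy difference of -0.43. Of the 109 other disordered genes with lower TPM, 58 (53.2%) were, with a median difference of -0.087, against -0.099 for the 683 others that do not encode ribosomal proteins. Among all genes with 1000 TPM or more at 0 min, the median entropy difference was -0.26 for the 97 disordered genes and -0.32 for the 38 others. The median log2 TPM differences of these 97 and 38 genes were -3.96 and -3.89. The 77 ribosomal protein genes and the 109 other disordered genes with lower TPM also differed in how far expression moved. Their median log2 differences were -4.28 and -2.07. Among the 107 disordered genes with a log2 difference of -3 or less at 60 min, 17 were at or above 7.0. They were 5 of the 74 ribosomal protein genes and 12 of the 33 other genes with such a difference. In the whole set, 60.3% were at or above 7.0 at 60 min and 45.1% in all 6 columns. Named after their values were seen, 9 of these 107 were at or above 7.0 in all 6 columns, namely EFB1, TAT1, ALD5, ZRT1, HXT4, RPL26A, FAA4, GAS1 and RAS1. GAS1, a cell wall glucanosyltransferase gene, had 172 TPM at 60 min, against 1431 TPM at 0 min, with an entropy of 7.200 at 60 min.

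The genes that stayed and those that did not differed before cadmium. The 233 at or above 7.0 throughout had a median of 73.5 TPM at 0 min, a median length of 1383 bp and 1 ribosomal protein gene. The 84 below 7.0 in every treated column had a median of 798 TPM, a length of 930 bp and 45 ribosomal protein genes. Their median entropies at 0 min were 7.132 for the 233 and 7.0625 for the 84, so the second group began nearer the cutoff. At 60 min, 41 of 232 of the first group and 63 of 84 of the second had lower TPM. An upstream gap over 1000 bp was present for 33.9% of the 233 and for 24.9% of the 229 that were below 7.0 at 120 min. Outside the set, 34 ORFs were at or above 7.0 in all 5 treated columns, with median levels over the 6 columns of 42.7, 192, 374, 312, 417 and 362 TPM.

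Promoter occupancy of the disordered genes resembled that of the others in level. Its differences had a higher rank correlation with those in expression, except among ribosomal protein genes. The median count of small fragments was 156, 148, 163, 182, 207 and 226 over the 6 columns, against 150, 137, 156, 171, 202 and 228 for the others; the promoter window is not given in the sources used here. Over the 5 treated columns, 0, 7, 7, 27 and 40 disordered genes had a count higher by at least 1 in log2(count + 63), against 0.0226%, 0.384%, 0.542%, 1.69% and 3.0% of the table; the 40 are 7.74% of the set. Lower by at least 1 were 0, 0, 2, 3 and 4 genes (0.774% at 120 min), against 0.0%, 0.0%, 0.0452%, 0.113% and 0.136%. Of the genes past the threshold at 120 min, 90.9% were higher as deposited. After division of each column by its median 38.5% were, with 10 higher and 16 lower. The others had 97.9% and 82.6%. The larger column totals later in the time course move with this result, and their part in it was not tested.

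The 4 largest sustained promoter rises were those of YCT1, ADR1, ENO1 and TPO4. ADR1 (YDR216W), a transcription factor gene for growth on non-fermentable carbon, had 46, 64, 171, 240, 277 and 353 fragments, with 15.1, 49.3, 159, 180, 261 and 304 TPM. TPO4, a polyamine transporter gene, had 50, 77, 155, 205, 280 and 311 fragments. The 4 largest falls were those of STM1, INA1, RPL17B and RRG1. STM1 (YLR150W), a ribosome-binding protein gene, had 157, 130, 58, 31, 40 and 35 fragments, with 4180, 4228, 3208, 1439, 375 and 172 TPM. RRG1 (YDR065W) had 135, 81, 48, 48, 40 and 48 fragments, yet its expression was 18.0 TPM at 60 min, against 18.8 TPM at 0 min.

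Across genes, the difference in promoter count at 60 min had a Spearman correlation with the difference in TPM of 0.70 over the 515 disordered genes, against 0.37 over the 3908 others. At 7.5, 15, 30 and 120 min it was 0.35, 0.61, 0.65 and 0.63, against 0.05, 0.23, 0.37 and 0.36. For entropy and TPM the values at 60 min were 0.49 and 0.53. Genes are not independent replicates, all differences share the 0 min time point, and the promoter and entropy tables come from the same assay, so these are descriptions. The spread of TPM differences was also unlike. At 60 min 36.1% of the 515 were lower and 31.3% higher, against 18.3% and 31.7% of the others. A wider spread can by itself raise a rank correlation, and its part was not tested. The following splits were chosen after the values were seen. The promoter correlation at 60 min was 0.70 over the 438 disordered genes that do not encode ribosomal proteins. It was 0.37 over the 3875 others that do not encode ribosomal proteins. Over ribosomal protein genes it was 0.20 for the 77 in the set and 0.41 for the 33 outside it. For entropy and TPM the correlation was 0.26 over the 438 and 0.09 over the 77, against 0.52 over the 3875. Entropy in the set had little room to rise. Of its 161 genes with higher TPM, 0 were higher by at least 0.2 in entropy, against 32.6% of 1238 others. All 77 ribosomal protein genes had lower TPM, so both correlations over them cover only 1 direction of expression change. The promoter correlation was 0.77 for disordered genes with an upstream gap over 1000 bp and 0.67 for those with a shorter gap, against 0.48 and 0.36 for the others.

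**Figure D5:**
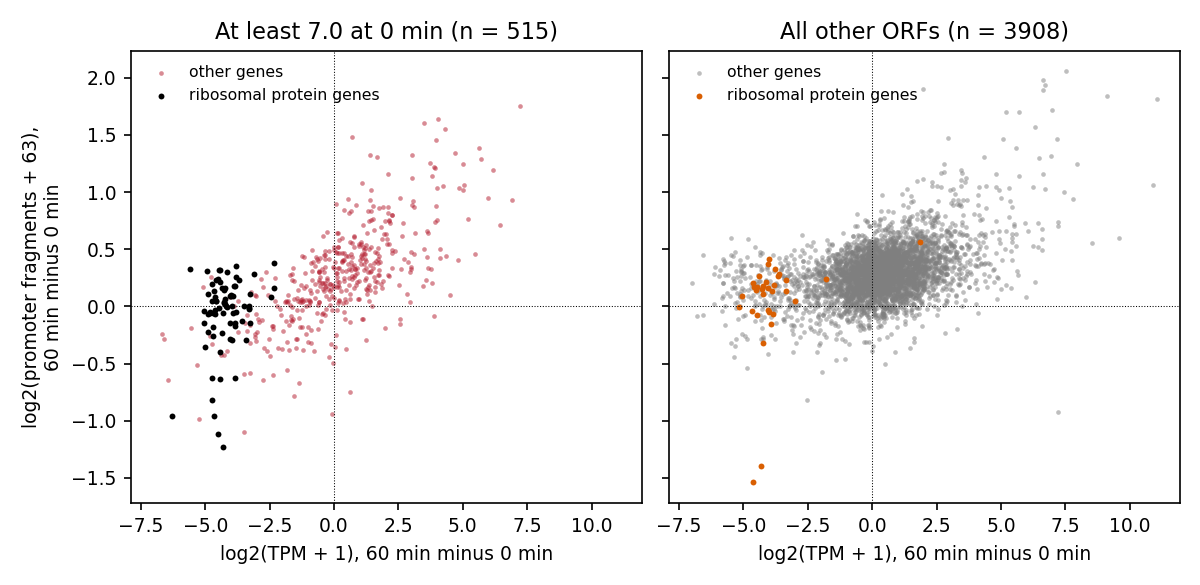
Difference in log2(promoter fragments + 63) (vertical axis) against difference in log2(TPM + 1) (horizontal axis) at 60 min from 0 min, 1 point per ORF, disordered gene bodies on the left and all other ORFs on the right. Ribosomal protein genes are black on the left and orange on the right. On the left they lie near -4.28 on the horizontal axis, with a median promoter difference of 0.003, against 0.28 for all ORFs. The Spearman correlation is 0.70 on the left and 0.37 on the right.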

How the data were processed

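Per the submitters' processing notes, Bowtie 0.12.7 and the builds sacCer3 and R64 were used, in roles not given. The authors deposited 3 tables: entropy as a score, expression as TPM, and promoter occupancy as whole-number counts of small fragments (the deposited 7.5 min column is recorded as signal, because its numeric header reads as a value). Fragment lengths, windows, the entropy formula and strand are not given in the sources used here. Time points were read from the sample titles and column names.

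Here, differences were taken from 0 min: plain for entropy, log2(TPM + 1) where the mean reached 1 TPM, and log2(count + 63), the constant being the 10th percentile of all promoter counts. Thresholds were 0.2 (entropy) and 1 (log2). With 1 value per time point, no test was run. TPM steps gave whole reads for 99.4 to 99.5% of ORFs within 0.02 read; these reads describe depth only. All 4427 ORFs matched RefSeq (R64), which gave symbols, lengths and neighbours; strand came from systematic names. No promoter sequences were used here, so no motif search was made. The members and gene lists were chosen with earlier results of these data known.

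Genes named are the 5 highest at 0 min, 3 on either side of the cutoff, the 5 lowest and highest mean treated entropies, the 5 largest TPM rises and falls (mean reaching 10 TPM, 1 direction at all 5 time points), the 4 largest promoter rises and falls, and the leading member of each list with at least 3 members; others were named after their values were seen. 1 gene that the rule names is not reported here. Alternatives covered the cutoff, baseline, thresholds, pseudocounts, TPM filter and column scaling. Python 3.11.15, pandas 2.3.3, numpy 2.4.6, scipy 1.17.1 and matplotlib 3.10.9 were used. The promoter and TPM calls were run on simulated data. The simulated TPM held no noise, so its outcome was fixed in advance, and the entropy call was not tested.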

Additional observations from a re-analysis of the deposited data

How the results depend on the processing

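No paired analysis was possible because no column names a replicate, and for the same reason no replicate could be left out. The share of disordered genes with entropy lower by the threshold at 120 min (29.4%) was 45.5% at a threshold of 0.1 and 19.1% at 0.3. The share higher (0%) was 7.93% at 0.1, 0.926% with a cutoff lower by 0.05 and 1.16% from the 7.5 min baseline. Promoter counts were higher at 120 min for 7.74% as given, 14.7% with a pseudocount of 6.3, 13.7% with 10 and 1.93% after division by the column median; lower for 0.774%, and for 2.90%, 2.90% and 3.09% in that order. The median entropy difference at 60 min of disordered genes with higher TPM (-0.002) lay so near 0 that its sign has no meaning: it was 0.007 with a cutoff lower by 0.05, 0.001 with a TPM pseudocount of 5 and 0.0005 with rescaled TPM, and -0.016 with one higher by 0.05, -0.035 with entropy columns shifted to a common median and -0.0291 after quantile normalization. For those with lower TPM (-0.22) it was -0.087 without ribosomal protein genes, an alternative chosen after seeing the data. Medians that changed sign were TPM at 60 min (0.0161, cutoff lower by 0.05) and 30 min (-0.149, cutoff higher by 0.05); entropy at 7.5 and 15 min (0.03 and 0.016, shifted columns); promoter counts at 30, 60 and 120 min (-0.0562, -0.0844 and -0.136, divided by the median); TPM at 7.5 and 30 min (0.0392 and -0.259, rescaled); and TPM at 15, 60 and 120 min (0.131, 0.305 and 0.197, without ribosomal protein genes). The cause was not tested. Of the other alternative values for the main comparisons, 59 kept their direction and stayed within the limits set for a change.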
